A study of Mus musculus with 4 samples.

Results

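CD8 T cells of genetically engineered mouse lung adenocarcinomas were chosen from the 2 libraries made before depletion by their UMIs (unique molecular identifiers, each standing for 1 captured RNA molecule). A droplet barcode needed 1000 UMIs or more from 500 genes or more, no more than 20% of them mitochondrial, at least 1 UMI of Cd3d, Cd3e and Cd3g together, and at least 2 of Cd8a and Cd8b1 together. It had 0 UMIs of Foxp3, Cd79a and Epcam, and under 1% of its UMIs came from Lyz2. The rule gave 187 CD8 T cells among 7305 kept cells, with 79 in the KP library and 108 in the KPF1F2 library, out of 23576 barcodes and 13493 kept cells in the whole series.

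A CD8 T cell carries a T cell receptor with the coreceptor CD8, which binds MHC class I, and kills cells that present the peptide its receptor recognises. Naive CD8 T cells circulate through lymph nodes, which they enter with the help of Ccr7; after activation they make granzymes, perforin, interferon gamma and chemokines such as Ccl5. Under lasting antigen, as in tumours, CD8 T cells can take on inhibitory receptors such as PD-1 (Pdcd1) and Lag3 and the transcription factor Tox, a state called exhaustion, and some remain in tissue as resident cells with Itgae and Cxcr6.

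Both groups carried the KrasFSF-G12D, p53frt and Rosa-FSF-CreERT2 alleles on a mixed 129/B6 background, and tumours were started with an adenovirus, Ad5-mSPC-FlpO, in which the promoter of surfactant protein C drives Flp recombinase. KP mice had Foxa1flox/+ and Foxa2flox/+, so the control group carried 1 floxed copy of each gene, and KPF1F2 mice were labelled Foxa1flox and Foxa2flox. Mice of both groups received 4 daily injections of 120 mg/kg tamoxifen from 10 weeks after tumour initiation, and tumours were taken at 12 weeks. Because Flp was delivered under an epithelial promoter and CreERT2 needs Flp, T cells are not the targeted cells, and neither CRE-ERT2 nor any Foxa1 or Foxa2 feature had a UMI in a CD8 T cell. The labels used here do not give the ages of the mice, how many mice went into a library, or whether tumours were pooled.

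There was 1 library per group, so no difference below has a replicate check. No test was made, and intervals cover counting error only. The 4 libraries held 4415 to 8536 barcodes and 47805086 to 63010016 UMIs each. The CD8 T cells had a median of 5936 UMIs and 1859 genes in KP and of 3988 UMIs and 1449.5 genes in KPF1F2, and sums of 496770 and 519761 UMIs. Other differences between the libraries coincide with genotype and cannot be told apart from it: the sample titles carry different run numbers, Xist had 526 UMIs in KP and 0 in KPF1F2 CD8 T cells, and Ddx3y and Eif2s3y together had 0 and 76, so the sexes of the mice differed. The transcripts Gm42418 and AY036118 took 2.48% of UMIs in KP and 0.180% in KPF1F2 CD8 T cells. The KP library shared 1 CD8 barcode with a kept cell of the KPF1F2 post-depletion library, and no other CD8 barcode was shared with a kept cell of another library.

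CD8 T cells made up 2.08% of kept cells in KP (exact 95% binomial interval 1.65 to 2.59) and 3.08% in KPF1F2 (2.53 to 3.71). Counted among the 3 T cell classes defined by such rules (CD8, CD4 without Foxp3, and regulatory), they were 26.4% of 299 cells in KP (21.5 to 31.8) and 41.9% of 258 cells in KPF1F2 (35.8 to 48.1). The 3 classes left out many cells with a CD3 UMI (Cd3d, Cd3e or Cd3g), which numbered 694 in KP and 652 in KPF1F2. Of all cells with a CD3 UMI, CD8 T cells were 11.38% in KP (9.12 to 13.98) and 16.56% in KPF1F2 (13.79 to 19.64). These 2 intervals overlapped. The KP library had 170 CD4 T cells without Foxp3 and 50 regulatory T cells, against 122 and 28 in the KPF1F2 library. After magnetic depletion of CD45+ and CD31+ cells no CD8 T cell remained, 0 of 3622 kept KP cells (which allows a share of up to 0.0828%) and 0 of 2566 kept KPF1F2 cells (up to 0.117%). These shares depend on tissue dissociation and on the other cells loaded.

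The genes that chose the cells are described without a comparison. The median of Cd8a and Cd8b1 together was 5 UMIs per cell in KP (range 2 to 23) and 6 in KPF1F2 (2 to 28). Exactly 2 UMIs, just inside the rule, were found in 12 KP and 6 KPF1F2 cells, and 7 and 21 cells with 1 UMI met every other condition and stayed outside. Ccl5, which the rule did not use, was detected in 5 of 12 and 6 of 6 of the cells just inside and in 2 of 7 and 9 of 21 of those just outside. Cd8a (chr6:71373427-71379173, GRCm38, GENCODE release M21) had a UMI in 59 of 79 and 101 of 108 cells, and Cd8b1, its partner in the same region (chr6:71322788-71337494), in 75 and 100. Of the defining markers of other cells, Cd4 had 1 UMI in each library and Ms4a1 of B cells had 0. Ncr1 and Klrb1c of NK cells had 0 in KP and 1 each in KPF1F2, and Il1rl1, Il5 and Il13 of type 2 innate lymphoid cells had 0. Other listed markers of these cells were detected. The B cell list had 55 UMIs in 38 KP cells and 78 in 45 KPF1F2 cells, and the NK cell list 105 in 41 and 143 in 56. The CD4 T cell list had 150 in 57 and 153 in 53, and the type 2 innate lymphoid list 16 in 13 and 22 in 17. T cell receptor constant genes, including those of gamma-delta T cells, were not analysed here. Il17a, listed with the gamma-delta markers, had 53 UMIs in KP, all of them in 2 cells (48 and 5), and 0 in KPF1F2. It was also detected in CD4 T cells without Foxp3 (log2 fold 1.80), so it does not single out gamma-delta T cells here.

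Both libraries were set against CD4 T cells without Foxp3 to describe the genes that set CD8 T cells apart. That class was chosen by Cd4, so Cd8a, Cd8b1 and Cd4 are not findings. In both libraries, 39 of 7769 genes (0.502%) were higher by 2-fold or more in CD8 T cells, and 93 (1.2%) were lower by as much. The highest were Ly6c2, a surface protein of memory CD8 T cells and monocytes (log2 folds 4.77 in KP and 4.64 in KPF1F2), the killer-cell lectin receptor genes Klrd1 (2.87 and 4.49) and Klrk1 (2.33 and 2.21), Cd160 (2.54 and 2.59), the granzymes Gzmb (2.65 and 3.24), Gzma (2.39 and 4.49) and Gzmm (2.14 and 2.08), and Ccl5 (4.44 and 2.14). The lowest besides Cd4 were helper and regulatory genes: Tnfrsf4, which encodes OX40 (-4.30 and -3.97), Areg (-3.88 and -2.70), Tnfsf8 (-2.65 and -2.80), Il2ra (-2.51 and -2.44), Tnfsf11, Il17f, Maf, Ramp3 and Cd40lg, the CD40 ligand (-2.19 and -2.54).

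For KPF1F2 against KP, UMIs of each gene were summed over the CD8 T cells of a library and given as CPM (UMIs of the gene scaled to a sum of 1000000). The log2 fold was taken after 10 CPM were added to each side, and genes with at least 20 UMIs over both libraries were compared. The median log2 fold of the 5084 such genes was 0.04, with 145 of them (2.85%) higher by 2-fold or more in KPF1F2 and 105 (2.07%) lower by as much. Ribosomal and mitochondrial genes, Gm42418 and AY036118 were also left out of the totals and the comparison together. Of the 4975 genes then compared, 136 were higher and 182 lower, so 42.8% of calls were higher in place of 58.0%. Ratios given with an interval are KPF1F2 over KP without the added 10 CPM, with an exact interval for counting error.

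Genes of naive and central memory T cells had a lower summed level in KPF1F2 CD8 T cells. Of 15 listed genes 14 were compared, none was at least 2-fold higher and 4 were at least 2-fold lower (Igfbp4, Dapl1, Il7r, Lef1). Their median log2 fold was -0.60 against 0.04 over all genes compared, and their summed level was 4036 CPM in KP and 2368 CPM in KPF1F2 (ratio 0.587, 0.546 to 0.630). Actn1 alone had a fold above 0 (0.06), and its sign turned under 4 of the alternative settings. Lef1, a transcription factor of naive and stem-like T cells (chr3:131110471-131224356), had 118 and 57 UMIs (238 and 110 CPM, log2 fold -1.05, ratio 0.462, 0.330 to 0.639).

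Il7r, the receptor subunit for the survival cytokine IL-7 (chr15:9505788-9530176), was detected in 66 of 79 KP cells and 49 of 108 KPF1F2 cells, at 837 and 371 CPM (log2 fold -1.15, ratio 0.443, 0.372 to 0.527). Dapl1 had 191 and 78.9 CPM (-1.18) and Igfbp4 74.5 and 23.1 CPM (-1.35). Bcl2, which protects cells from death and is raised by IL-7, had 537 and 291 CPM (-0.87), short of 2-fold, with a ratio of 0.541 (0.440 to 0.662). The other naive genes moved less. Ccr7, the chemokine receptor for lymph node entry (chr11:99144196-99155077), had 117 UMIs in 36 KP cells and 96 UMIs in 25 KPF1F2 cells (236 and 185 CPM, log2 fold -0.33), and its ratio interval, 0.592 to 1.04, included 1. Tcf7, which encodes TCF1, had 252 and 183 CPM (-0.44), and Klf2, which drives S1pr1 transcription, 809 and 544 CPM (-0.56). The order of the folds put Igfbp4 lowest and Actn1 highest, and neighbours in that order have overlapping counting intervals.

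**Figure D1:**
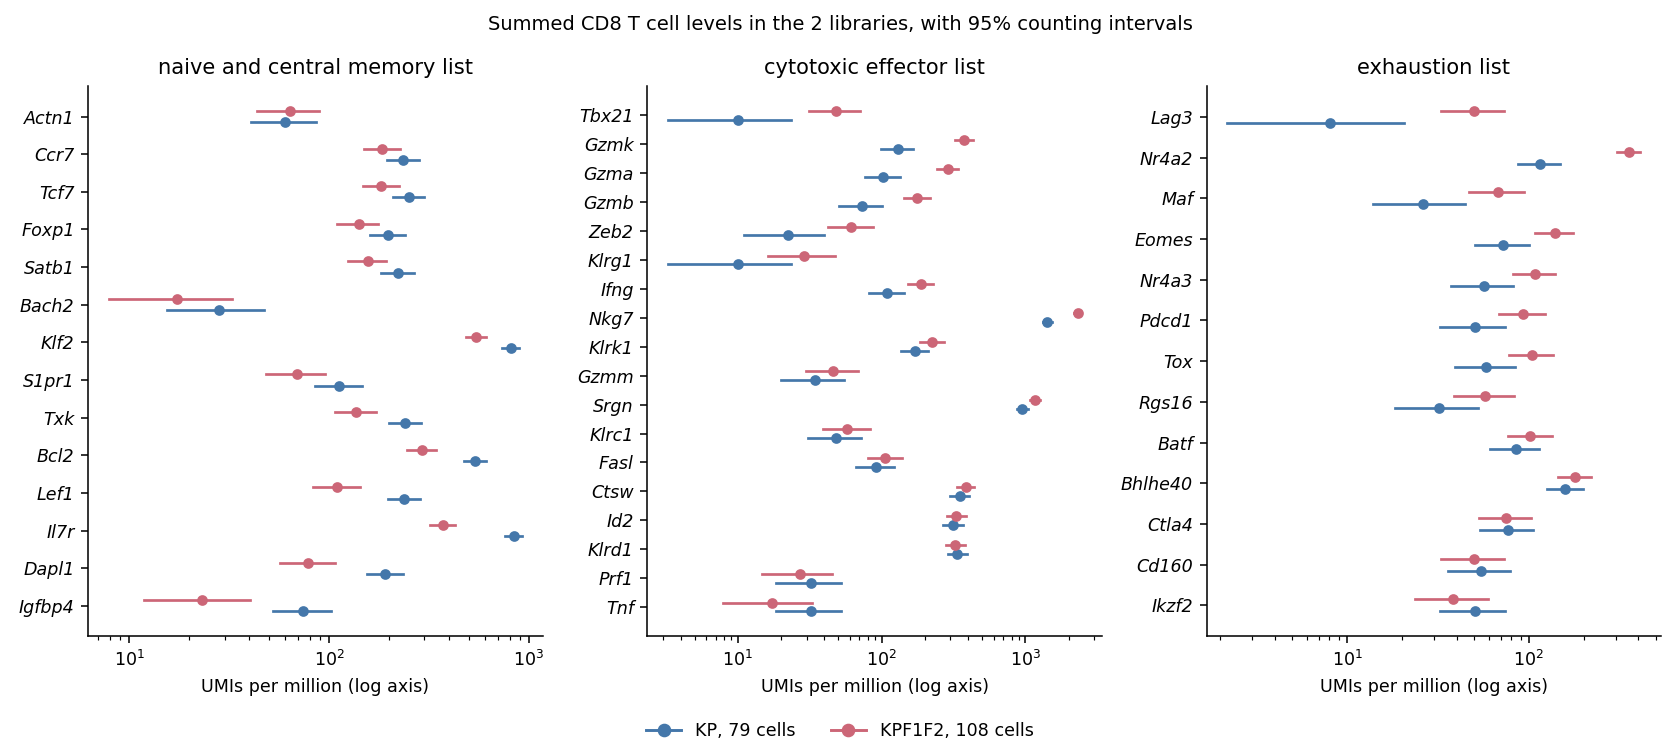
Level of the compared genes of the naive, effector and exhaustion lists in the summed CD8 T cells of each library, in CPM on a log axis, with 1 point per library (KP, 79 cells; KPF1F2, 108 cells) and bars for the exact 95% Poisson interval, which covers counting error only. Lef1, Il7r and Dapl1 sit lower in KPF1F2, while Gzmk, Gzma, Gzmb, Tbx21, Lag3 and Nr4a2 sit higher.

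Genes of cytotoxic effector T cells had a higher summed level in KPF1F2 CD8 T cells, and 3 granzymes were among the genes past 2-fold. Of 22 listed genes 18 were compared, 5 were at least 2-fold higher (Gzma, Gzmb, Gzmk, Tbx21, Zeb2) and none was at least 2-fold lower. The median log2 fold was 0.36, with a range from -0.63 to 1.53, and the summed level was 4241 CPM in KP and 6226 CPM in KPF1F2 (ratio 1.47, 1.39 to 1.55). Gzmk, a granzyme of early effector and memory CD8 T cells (chr13:113171608-113225908), had 64 UMIs in 23 KP cells and 195 in 50 KPF1F2 cells (129 and 375 CPM, log2 fold 1.47, ratio 2.91, 2.19 to 3.93). Gzmb, the granzyme that cuts caspases in target cells (chr14:56258838-56262260), had 36 UMIs in 12 cells and 92 in 32 cells (72.5 and 177 CPM, 1.18). Gzma (chr13:113093825-113100981) had 51 UMIs in 5 cells and 150 in 17 cells (103 and 289 CPM, 1.41), and 62.7% of its KP UMIs came from 1 cell. Over the settings tried for single genes the lowest log2 folds were 0.97 for Gzma, where at least 1 Cd8b1 UMI was required, 0.89 for Gzmb, with 50 CPM added, and 1.25 for Gzmk.

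The promoters of Gzma and Gzmb are shown as granzyme genes past 2-fold that hold a short RUNX motif near the start of transcription. Gzmk, the granzyme with the highest fold, had no match in its window, nor had Tbx21 or Zeb2, the other effector genes past 2-fold. Nkg7 made the largest addition to the summed level of the list. The motif searched was TGTGGT on either strand, which Runx3 and Runx1, transcription factors of CD8 T cells, are known to bind. It was found in 10 of the 19 effector genes with an entry in the RefSeq promoter table (GRCm38.p6; 22 are listed), beside 15.9% of all 27025 genes of that table. Of those 10, only Gzma and Gzmb were past 2-fold. A match is a description of letters and says nothing of binding. Each sequence is the 250 bases before the start, on the minus strand, with the motif in capitals (ACCACA in Gzma, from -50 to -45, is TGTGGT read on the other strand; in Gzmb the matches run from -93 to -88 and from -34 to -29). The Gzma window is chr13:113100982-113101231 and the Gzmb window is chr14:56262335-56262584.
Gzma: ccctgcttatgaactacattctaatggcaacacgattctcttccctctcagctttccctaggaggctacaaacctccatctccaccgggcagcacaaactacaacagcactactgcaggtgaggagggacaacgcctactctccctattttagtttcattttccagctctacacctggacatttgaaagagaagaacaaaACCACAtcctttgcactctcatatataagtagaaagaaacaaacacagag
Gzmb: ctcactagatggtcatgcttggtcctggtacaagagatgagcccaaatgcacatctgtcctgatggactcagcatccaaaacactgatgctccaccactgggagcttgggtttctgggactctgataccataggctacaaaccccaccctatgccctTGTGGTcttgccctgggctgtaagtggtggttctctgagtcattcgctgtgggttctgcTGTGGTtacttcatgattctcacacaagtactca

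Tbx21, the transcription factor T-bet, had 5 UMIs in 5 KP cells and 25 in 18 KPF1F2 cells (log2 fold 1.53, ratio 4.78, 1.80 to 16.0), and Zeb2, which acts with T-bet in terminal effector cells, 11 and 32 UMIs (1.15). Nkg7, a granule protein, had 704 and 1199 UMIs (log2 fold 0.70, ratio 1.63, 1.48 to 1.79), and Ifng, interferon gamma, 54 UMIs in 19 cells and 97 in 45 cells (0.73, ratio 1.72, 1.22 to 2.44). Both stayed short of 2-fold with intervals above 1. Prf1, perforin, had 16 and 14 UMIs (-0.19), Gzmm 17 and 24 (0.35), Tnf 16 and 9 (-0.63) and Klrg1, a receptor of short-lived effector cells, 5 and 15 (0.95), and each of these intervals included 1. Cx3cr1 (2 and 17 UMIs) and S1pr5 (0 and 7) had too few UMIs to be compared, and Gzmc had 0 in both libraries.

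Of the 6 T cell chemokines 4 were compared and 2, Ccl5 and Ccl4, were at least 2-fold higher, with a median log2 fold of 1.03. Ccl5, which attracts T cells, monocytes and dendritic cells (chr11:83525778-83530518), had 2987 UMIs in 46 of 79 KP cells and 7025 in 89 of 108 KPF1F2 cells, or 6013 and 13516 CPM (log2 fold 1.17, ratio 2.25, 2.15 to 2.35). Ccl4 had 61 UMIs in 13 cells and 185 in 39 cells (1.46, ratio 2.90, 2.16 to 3.94). Xcl1, the ligand for Xcr1 on type 1 dendritic cells, had 30 and 63 UMIs (0.90), and Ccl3 13 and 16 (0.17). Among 6 compared chemokine receptors none was at least 2-fold higher or lower, and Cxcr3, a receptor of effector T cells, had 70 and 67 UMIs (-0.12).

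Genes linked to exhaustion had a higher summed level in KPF1F2, and most were short of 2-fold. Of 23 listed genes 13 were compared, 3 were at least 2-fold higher (Lag3, Nr4a2, Maf) and none was lower by as much, with a median log2 fold of 0.74 and summed levels of 912 and 1522 CPM (ratio 1.67, 1.48 to 1.88). Pdcd1, the PD-1 receptor (chr1:94038305-94052553), had 25 UMIs in 12 KP cells and 48 in 25 KPF1F2 cells (50.3 and 92.4 CPM, log2 fold 0.76, ratio 1.84, 1.11 to 3.11), and 32% of its KP UMIs came from 1 cell. Lag3, an inhibitory receptor for MHC class II (chr6:124904361-124911705), had 4 UMIs in 4 cells and 26 in 13 cells (ratio 6.21, 2.16 to 24.5), with a log2 fold of 1.73 that ranged from 0.78 to 2.49 over the settings. Nr4a2, a factor induced by T cell receptor signals (chr2:57106830-57124003), had 57 UMIs in 22 cells and 185 in 65 cells (log2 fold 1.55), but it was also higher in CD4 T cells (1.85) and B cells (1.11). It held 57 of the 453 KP UMIs and 185 of the 791 KPF1F2 UMIs of the exhaustion list.

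Tox, the factor that sets the exhausted state, had 29 and 54 UMIs (log2 fold 0.74, ratio 1.78, 1.11 to 2.90), and Eomes, a T-box factor of memory and exhausted cells, 36 and 72 (0.85, ratio 1.91, 1.26 to 2.94). Ctla4 had 38 and 39 UMIs (-0.02), and Havcr2, which encodes TIM-3 (10 and 3 UMIs), Tigit (3 and 3) and Entpd1, which encodes CD39 (6 and 12), were under the minimum for comparison. At least 1 of 6 inhibitory receptors or CD39 (Pdcd1, Lag3, Havcr2, Tigit, Ctla4, Entpd1) was seen in 31 of 79 KP cells (39.2%) and 51 of 108 KPF1F2 cells (47.2%), and at least 2 of them in 12 and 18 cells. These counts are without thinning, and KP cells were deeper. In 1 thinning to 2000 UMIs, at least 1 was seen in 19 of 76 KP (25%) and 37 of 104 KPF1F2 cells (35.6%), and at least 2 in 3 (3.95%) and 7 (6.73%). Pdcd1 and Tox were seen in the same cell in 5 KP and 15 KPF1F2 cells, and Pdcd1 and Lag3 in 3 and 8. Cells with several of these receptors were few in both libraries.

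Genes listed for progenitor exhausted cells, the TCF1-positive pool that renews exhausted cells, had a lower summed level in KPF1F2. Il7r was the largest part of that level, with 416 of the 671 KP UMIs and 193 of the 426 KPF1F2 UMIs. Of 8 listed genes 5 were compared and 1, Il7r, was at least 2-fold lower, with a median log2 fold of -0.44 and a ratio of 0.607 (0.536 to 0.686). Slamf6 had 171 and 96.2 CPM (-0.77, ratio 0.562, 0.388 to 0.807) and Id3 11 UMIs in both libraries. Il7r and Tcf7 belong to this list and to the naive list, so the lists are not independent. Pdcd1 and Tcf7 were detected together in 7 KP and 5 KPF1F2 cells. No gene of tissue residency reached 2-fold: of 12 listed genes 7 were compared, with a median log2 fold of -0.14 and a ratio of 0.755 (0.681 to 0.836). Itgae, the CD103 chain that binds E-cadherin, had 32 and 30 UMIs (-0.14) and Cxcr6 64 and 62 (-0.10), and the sign of both turned under 3 settings. Cd69 (469 and 271 CPM, -0.77) and Rgs1 (465 and 277 CPM, -0.73), which also respond to activation, were the lowest members beyond counting error.

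**Figure D2:**
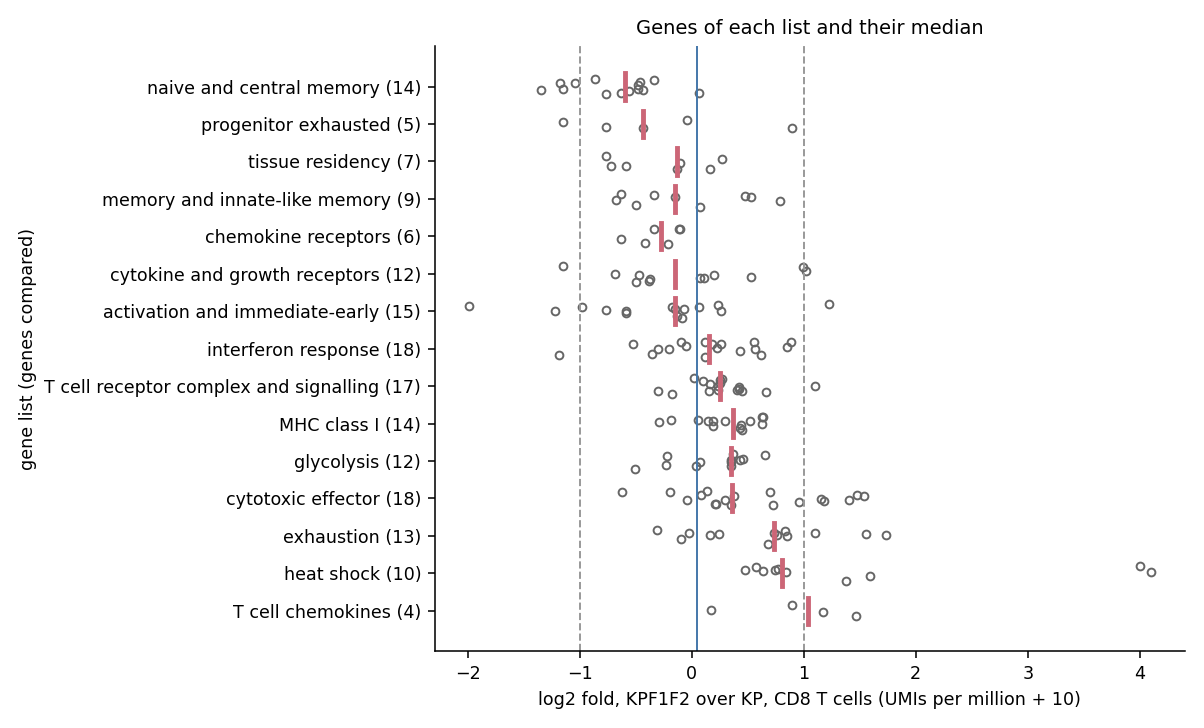
Log2 fold of KPF1F2 over KP for each compared member of the gene lists, 1 open point per gene, with a red bar at each list's median, dashed lines at 2-fold and a blue line at the median of all genes compared (0.04). The naive list has its median at -0.60, the effector list at 0.36 and the exhaustion list at 0.74, and the T cell chemokines at 1.03.

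To describe cells rather than sums, each cell was thinned to 2000 UMIs, which left out 3 KP and 4 KPF1F2 cells. Shares are given as the mean over all possible thinnings, and, in parentheses, as the count in 1 thinning with its exact 95% binomial interval. Cells with at least 2 Ccl5 UMIs were 51.8% in KP (40 of 76, 40.8 to 64.2%) and 78.2% in KPF1F2 (81 of 104, 68.7 to 85.4%). Cells with a UMI of Ccr7 or Lef1 were 46.4% in KP (35 of 76, 34.5 to 57.9%) and 22.7% in KPF1F2 (17 of 104, 9.82 to 24.9%). For the Ccl5 limit, 7 and 4 cells lay near it, with 1 to 3 UMIs, and 33 and 20 cells had 0. Ccl5 divided the cells of both libraries into a group at or near 0 and a group with a median of 18.5 UMIs in KP and 33 in KPF1F2.

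**Figure D3:**
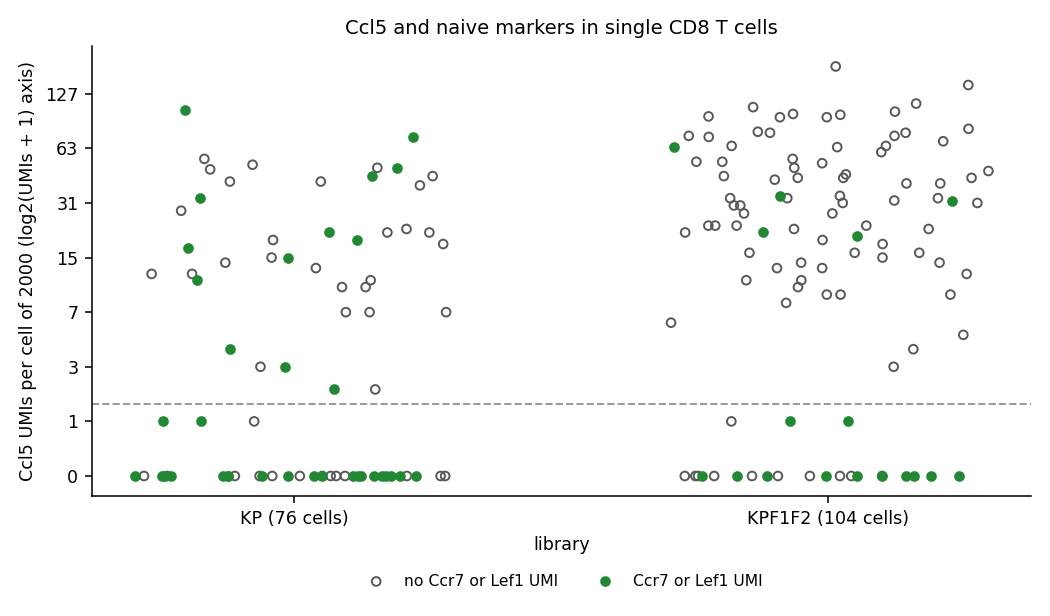
Ccl5 UMIs per CD8 T cell after 1 thinning to 2000 UMIs (76 KP and 104 KPF1F2 cells, 1 point per cell), with cells that have a Ccr7 or Lef1 UMI in green and a dashed line between 1 and 2 UMIs. Cells at 0 number 33 in KP and 20 in KPF1F2, and 40 and 81 cells lie above the line.

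Crossing both measures, cells with a Ccr7 or Lef1 UMI and fewer than 2 Ccl5 UMIs were 30.9% in KP and 13.2% in KPF1F2 as means over thinnings. Cells with at least 2 Ccl5 UMIs and neither naive gene were 36.3% and 68.8%, cells with both 15.5% and 9.46%, and cells with no naive gene and fewer than 2 Ccl5 UMIs 17.3% and 8.54%. The KP cells were thus spread over these states, and most KPF1F2 cells had Ccl5 without a naive gene. Cells with a Gzmk UMI were 17.6% in KP (13 of 76, 9.43 to 27.5%) and 37.0% in KPF1F2 (41 of 104, 30.0 to 49.5%), and without thinning 29.1% and 46.3%. Means over thinnings were 8.46% and 22.9% for Gzmb, 4.07% and 11.8% for Gzma, 13.8% and 29.5% for Ifng, 7.78% and 14.7% for Pdcd1, and 1.62% and 7.21% for Lag3.

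B cells, which should lack T cell effector genes, gave the free RNA level: after thinning, 0 of 148 KP and 0 of 316 KPF1F2 B cells had a Gzmk UMI, and 2 and 4 had a Ccl5 UMI. The median depth of B cells before thinning was 4048 and 4035.5 UMIs. Lef1 was seen in 0 and 4 of these B cells, while Ccr7 is made by B cells and gives no such reference.

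**Figure D4:**
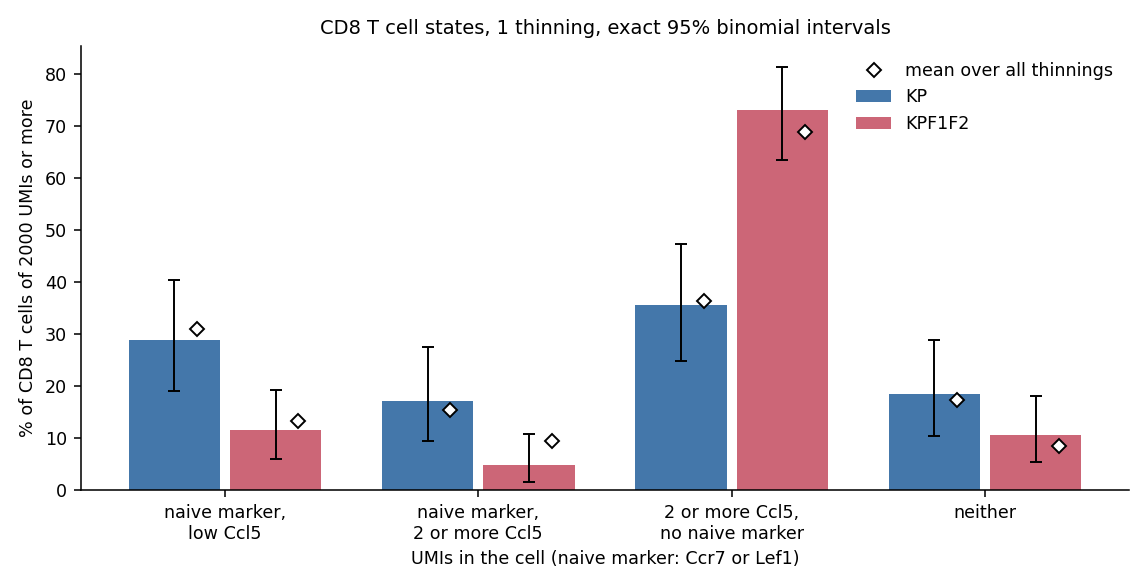
Share of CD8 T cells in percent, thinned to 2000 UMIs, by Ccl5 (at least 2 UMIs) and the naive genes Ccr7 and Lef1 (at least 1 UMI of either), for KP (76 cells) and KPF1F2 (104 cells). Bars and exact 95% binomial intervals are from 1 thinning and diamonds are means over all thinnings, which are 36.3% and 68.8% for cells with Ccl5 and no naive gene.

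The cells with at least 2 Ccl5 UMIs were also compared with the rest within each library. Gzma was found in no cell with fewer than 2 Ccl5 UMIs in either library (51 and 0 UMIs in KP, 145 and 0 in KPF1F2), and Gzmk had 60 and 0 UMIs in KP and 188 and 3 in KPF1F2. Eomes had 32 and 4 UMIs in KP and 69 and 2 in KPF1F2. Ccr7 had 30 and 86 UMIs in KP and 17 and 79 in KPF1F2, so most Ccr7 RNA was in the cells with fewer than 2 Ccl5 UMIs. Without thinning, 22 of 23 KP and 49 of 50 KPF1F2 cells with Gzmk also had Ccl5. The granzymes overlapped in part: Gzma and Gzmb were found together in 3 KP and 14 KPF1F2 cells, Gzmk and Gzmb in 8 and 14, and Gzmk and Gzma in 5 and 5.

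Between genotypes, the ratios of the naive, effector and exhaustion lists kept their direction among cells with at least 2 Ccl5 UMIs, 40 in KP and 81 in KPF1F2. Ccl5 itself still differed among these cells (11999 and 19369 CPM, ratio 1.61), so they were not matched for it. In this stratum 3.94% of 3704 genes were higher by 2-fold or more and 3.54% were lower by as much. The ratio was 0.589 (0.530 to 0.655) for the naive list, 1.25 (1.18 to 1.34) for the effector list and 1.54 (1.33 to 1.78) for the exhaustion list. Gzmk had a ratio of 2.22 (1.65 to 3.03), Gzma 2.02 (1.46 to 2.83), Gzmb 1.70 (1.14 to 2.60) and Ccl4 2.26 (1.66 to 3.1). The effector list had a median log2 fold of 0.13 there, against 0.03 over all genes compared. Of its 16 compared genes 2 were at least 2-fold higher (Gzmk, Zeb2). Nkg7 had a ratio of 1.29 (1.16 to 1.44). Intervals included 1 for Fasl (1.01, 0.643 to 1.59), Klrk1 (1.02, 0.741 to 1.41), Ctsw (0.97, 0.753 to 1.25) and Prf1 (0.828, 0.355 to 1.96), among others. Pdcd1 had 6 and 30 UMIs (3.55, 1.45 to 10.4), Slamf6 68 and 32 (0.334, 0.212 to 0.516) and Cxcr3 56 and 40 (0.507, 0.329 to 0.774). Ctla4, an inhibitory receptor of the exhaustion list, was lower in these cells (23 and 14 UMIs, 0.432, 0.206 to 0.876).

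Among cells with fewer than 2 Ccl5 UMIs, 36 in KP and 23 in KPF1F2, the naive list had a ratio of 0.702 (0.633 to 0.777) and the effector list 1.29. There 5.49% of 2477 genes were higher by 2-fold or more and 5.09% were lower by as much. Il7r (247 and 68 UMIs, 0.412, 0.310 to 0.541) was lower in these cells too. Tcf7 had a ratio of 0.997 (0.658 to 1.5) and Ccr7 of 1.37 (0.999 to 1.89), so neither was lower in this stratum. Cxcr3 had 14 and 27 UMIs there (2.88, 1.46 to 5.95), the opposite direction to the cells with Ccl5. Ctla4 also had the opposite direction (14 and 25 UMIs, 2.67, 1.34 to 5.56).

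Comparing the same libraries in other lymphocytes shows which differences were not limited to CD8 T cells. In CD4 T cells without Foxp3, 2.35% of 6550 genes were higher by 2-fold or more and 2.02% were lower by as much, and in B cells 1.83% and 1.68% of 7609. The naive list had medians of -1.08 in CD4 T cells, where 8 of 14 genes were at least 2-fold lower, and -0.32 in B cells. Ccl5 had 258 and 1877 UMIs in CD4 T cells (log2 fold 3.47), Gzmk 23 and 151 (2.92), Ccl4 12 and 117 (3.16) and Eomes 6 and 41 (2.25), all larger folds than in CD8 T cells. Cells with at least 2 Ccl5 UMIs were 7 of 158 KP and 31 of 121 KPF1F2 CD4 T cells (4.43% and 25.6%). Gzma had 11 and 2 UMIs in CD4 T cells, too few to be compared, and Lag3 27 and 15 UMIs (log2 fold -0.14). Of 14 effector genes compared in CD4 T cells 4 were higher by 2-fold or more and 1 was lower by as much (median 0.63). Of 16 exhaustion genes 6 were higher and none was lower (median 0.41), among them Pdcd1 (49 and 74 UMIs, 1.10) and Tox (36 and 53, 1.03). Regulatory T cells, those with Foxp3, went the other way for several of these genes, in a class where 3.79% of 4117 genes were higher by 2-fold or more and 6.07% were lower by as much. There 5 of 13 exhaustion genes were lower and none was higher (median -0.48), among them Pdcd1 (120 and 27 UMIs, -1.43), and Ccl5 had 42 and 1 UMIs, with at least 2 in 3 of 49 and 0 of 28 cells after thinning (0% with an exact 95% upper bound of 12.3%). Whether a fold differs between the classes was not tested, since each class has 1 library per group.

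**Figure D5:**
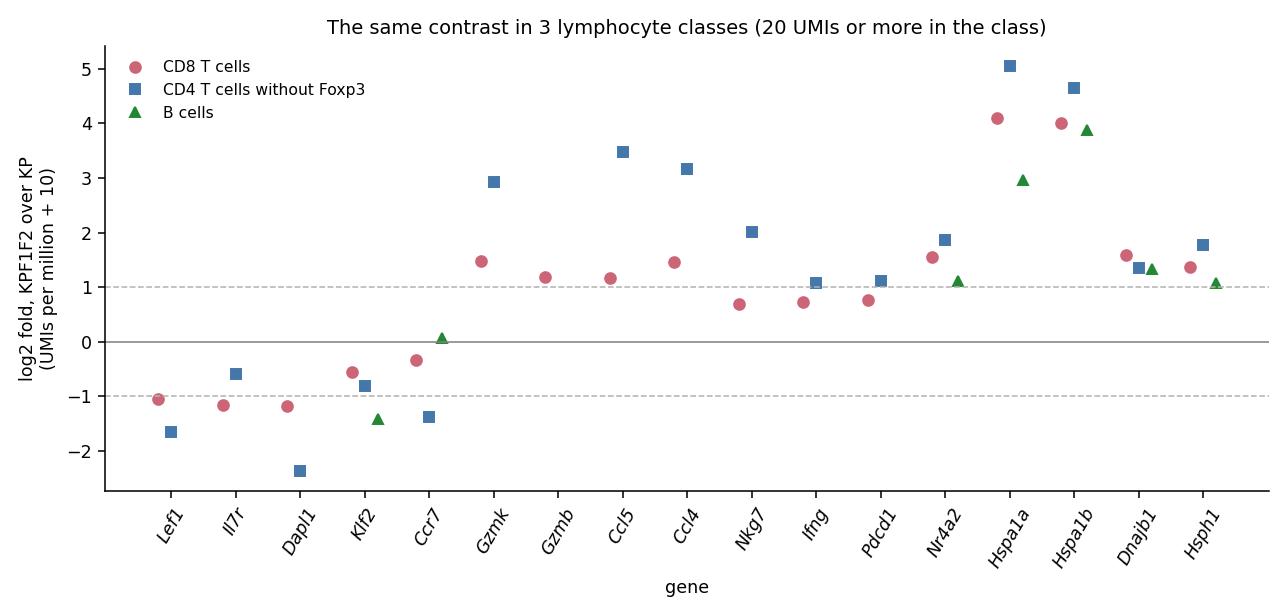
Log2 fold of KPF1F2 over KP for named genes in CD8 T cells, CD4 T cells without Foxp3 and B cells of the same libraries, 1 point per gene and class where it had at least 20 UMIs. Ccl5, Gzmk and Ccl4 lie above 0 in both T cell classes (1.17 and 3.47 for Ccl5), and Lef1 and Il7r lie below 0 in both.

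Heat shock genes had a higher summed level in KPF1F2 CD8 T cells. All 10 listed genes were compared, 4 were at least 2-fold higher (Hspa1a, Hspa1b, Dnajb1, Hsph1), the median log2 fold was 0.80 and the summed level was 4865 CPM in KP and 8508 CPM in KPF1F2 (ratio 1.75, 1.66 to 1.84). Hspa1a and Hspa1b encode the inducible Hsp70 chaperone and are near-identical neighbours (chr17:34969190-34972156 and chr17:34956436-34959238), so reads can be split between them. Hspa1a had 0 and 84 UMIs, at least 26.8-fold higher against a floor of 3 counts in the KP sum, and Hspa1b 2 UMIs in 1 cell and 112 in 27 cells (ratio 53.5, 14.5 to 447). Together they were detected in 1 of 79 KP cells and 39 of 108 KPF1F2 cells. The sum was 14 and 602 UMIs in CD4 T cells and 19 and 755 in B cells, so the difference was present in other lymphocytes of the library as well. Dnajb1, the Hsp40 partner of Hsp70, had 50 and 168 UMIs (1.59).

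The Hspa1a and Hspa1b promoters are shown because these genes had the highest folds of their list and match at nearly every base. Each is the 250 bases before the start on the minus strand (RefSeq, GRCm38.p6), Hspa1a at chr17:34972157-34972406 and Hspa1b at chr17:34959239-34959488, and 247 of 250 positions are identical (98.8%). Capitals mark GAANNTTC, the facing GAA and TTC blocks of the heat shock element that Hsf1 is known to bind; it is its own reverse complement and runs from -104 to -97 in both. It was found in 5 of the 7 heat shock genes with an entry (Hspa1a, Hspa1b, Dnaja1, Hspe1, Hspd1) and in 7.73% of all 27025 genes. Dnajb1 and Hsph1, the other heat shock genes past 2-fold, had no match in any entry. Dnaja1, Hspe1 and Hspd1 had a match but were short of 2-fold.
Hspa1a: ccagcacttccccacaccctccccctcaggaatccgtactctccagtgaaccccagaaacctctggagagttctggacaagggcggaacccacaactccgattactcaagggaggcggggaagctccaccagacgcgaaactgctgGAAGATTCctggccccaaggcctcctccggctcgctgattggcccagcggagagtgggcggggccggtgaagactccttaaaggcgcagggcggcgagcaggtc
Hspa1b: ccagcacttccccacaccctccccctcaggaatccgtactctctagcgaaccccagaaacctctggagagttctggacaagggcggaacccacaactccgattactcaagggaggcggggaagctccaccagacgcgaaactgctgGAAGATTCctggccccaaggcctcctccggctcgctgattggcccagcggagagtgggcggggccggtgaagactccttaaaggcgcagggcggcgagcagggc

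Immediate-early genes did not move as 1 group. Of 15 compared, Nr4a1 was at least 2-fold higher (45 and 117 UMIs, 1.22), and Jun (205 and 50 UMIs, -1.99) and Fosb (169 and 73, -1.22), subunits of AP-1, were at least 2-fold lower. Jun was also lower in CD4 T cells (-1.53) and B cells (-1.51). For these genes too, library and genotype cannot be told apart. With the 40 cells that had an Hspa1a or Hspa1b UMI left out, a choice made after seeing the data, the naive list had a ratio of 0.539.

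Interferon response genes differed little. Of 18 compared, none was at least 2-fold higher and Xaf1 was at least 2-fold lower (26 and 9 UMIs, -1.19), with a median log2 fold of 0.15 and a ratio of 1.19 (1.09 to 1.30). The ratio was 0.821 (0.734 to 0.919) among cells with at least 2 Ccl5 UMIs and 2.02 among the others, but single cells weighed on both values. In the first stratum 1 KP cell held 21.9% of the KP interferon UMIs, and in the other 1 KPF1F2 cell held 24.4% of the KPF1F2 ones. Without the highest cell of each library the ratios were 0.938 (0.830 to 1.06) and 1.67 (1.43 to 1.95). Ifi27l2a had 306 and 558 CPM (0.85) and Igtp, an interferon-gamma-induced GTPase, 44.3 and 90.4 CPM (0.89). All 14 MHC class I and peptide loading genes were compared, and none reached 2-fold (ratio 1.28, 1.24 to 1.33): H2-K1 had a log2 fold of 0.64, H2-D1 0.45 and B2m, the shared light chain, 0.05. Of 17 compared genes of the T cell receptor complex and its signalling only Cd3e was at least 2-fold higher (308 and 670 CPM, 1.10), and its fold was 1.09 in CD4 T cells. Cd3e was 1 of the genes used to choose the cells.

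Cell cycle genes rested on few cells. Of 14 compared S phase genes 4 were at least 2-fold higher (Mcm6, Pcna, Rrm2, Slbp; ratio 1.94, 1.68 to 2.24), and of 8 G2 and M phase genes 5 were (ratio 1.91, 1.68 to 2.17). However, 1 KP cell and 4 KPF1F2 cells had 5 or more of the G2 and M phase genes, and the highest 2 cells held 31.9% and 77.9% of these UMIs. Without those 5 cells the G2 and M phase ratio was 0.918. The share of cells with a Mki67 or Top2a UMI, both genes of dividing cells, was 6.22% in KP (7.89% in 1 thinning, 2.95 to 16.4) and 5.86% in KPF1F2 (7.69%, 3.38 to 14.6), so no difference in dividing cells was detectable at this number of cells. The 12 compared genes of glycolysis had a ratio of 1.36 (1.26 to 1.47), with none at 2-fold.

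Among all genes with a mean of at least 100 CPM, after exclusion of genes higher outside T cells, the largest higher folds were Rsrp1, a splicing-related gene (145 and 486 UMIs, log2 fold 1.65), Stmn1, a microtubule regulator of dividing cells (40 and 142, 1.65), Dnajb1, Nr4a2, Gzmk, Ccl4, Ier5l (37 and 112, 1.42), Gzma, Ybx3 (33 and 98, 1.38) and Hopx, a homeodomain protein of effector and memory T cells (68 and 188, 1.34). For Stmn1, 40.8% of the KPF1F2 UMIs came from 1 cell, and its fold without the cycling cells was 0.33. The lowest were AY036118 (551 and 37 UMIs, -3.79), BC018473 (-1.34), Neurl3 (-1.25), Cirbp, the cold-inducible RNA-binding protein (-1.24), Dapl1, Pnisr (-1.15), Il7r, Erdr1 (-1.09), Rgs10 (-1.05) and Lef1. Erdr1 lies in the region shared by the sex chromosomes. Rsrp1 was also higher in CD4 T cells (1.63) and B cells (1.24), and AY036118 also lower (-3.44 and -4.05).

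Markers of other cells moved with the comparison in the CD8 T cells. Surfactant gene Sftpc had a UMI in 79 of 79 KP cells and 27 of 108 KPF1F2 cells, and the 10 epithelial markers summed to 1367 and 329 CPM (ratio 0.241, 0.202 to 0.285), with 2 of 5 compared at least 2-fold lower and Epcam at 0 by the rule. The 7 neutrophil markers summed to 421 and 61.6 CPM, with 4 of 4 compared at least 2-fold lower. Of the KP neutrophil marker UMIs 63.2% came from 1 cell, and 14 of 79 KP cells and 25 of 108 KPF1F2 cells had any. Without the highest cell of each library the ratio was 0.358 (0.225 to 0.555). The direction was not shared by the Ccl5 strata. In cells with at least 2 Ccl5 UMIs these markers summed to 32.3 and 71.6 CPM (ratio 2.22, 0.970 to 5.69). In the rest they summed to 796 and 42.7 CPM (0.0537, 0.0213 to 0.113). The 14 macrophage and monocyte markers, of which Lyz2 was limited by the rule, summed to 2307 and 1626 CPM (ratio 0.705, 0.644 to 0.771), with none of 7 compared at 2-fold, while NK cell markers had 1 of 4 compared higher (Klre1, 7 and 45 UMIs) and 1 lower (Tyrobp, 31 and 7). The part of this RNA in the list differences was not tested. Granzymes had 0 UMIs of Gzma, Gzmb and Gzmk in B cells in both libraries.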

How the data were processed

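Single-cell RNA was measured in 4 libraries with 10x Genomics 3′ version 3.1 chemistry, per the labels' protocols, and the 2 pre-depletion libraries were compared. The deposited matrices hold counts of UMIs per gene and barcode, which the authors made on mm10 (per the submitters' processing notes) using Cell Ranger, version 6.0.0 per the file headers. Its settings: not given in the sources used here. Positions come from GENCODE release M21 (mouse), which matched 27645 of 28006 features.

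Cells were chosen by the stated rule. UMIs were summed per library and given as CPM, with exact Poisson intervals for levels, exact conditional binomial intervals for ratios and Clopper-Pearson intervals for shares, all at 95% (Python 3.11.15, numpy 2.4.6, scipy 1.17.1, pandas 2.3.3). B cells had at least 2 Cd79a UMIs. There was 1 library per group, so no test was made. The script was tested on simulated data. Scrublet, in scanpy 1.11.5, marked 4 KP and 3 KPF1F2 cells as doublets (0.105% and 0.0855%), too few to count as working. No cell was removed for that, and leaving out the 181 and 131 highest scores (2 and 0 CD8 T cells) was an alternative. Factors of edgeR 4.0.16 (TMM) and DESeq2 1.42.0, in R 4.3.3, were alternatives.

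Members and gene lists were chosen with earlier results of these data known. Named genes were list members with at least 20 UMIs over both libraries, up to 3 in each direction in the other lists, and the 10 highest and 10 lowest folds with a mean of 100 CPM. The last excluded gene models, ribosomal and mitochondrial genes, receptor variable genes, markers of sex, and genes with a higher level outside T cells. The 29 lists held 14 genes that were not analysed here, among them T cell receptor constant genes. A few other items are not reported here, and list counts and sums leave them out. Interval widths follow the sums of 496770 and 519761 UMIs.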

Additional observations from a re-analysis of the deposited data

Results flagged for a closer look

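Some genes moved at least 2-fold in opposite directions in CD8 T cells and in another lymphocyte class of the same libraries, and none of these differences was tested, since each class has 1 library per group. Igfbp4 had a log2 fold of -1.35 in CD8 T cells and 1.80 in B cells. Il17a had -3.54 in CD8 T cells and 1.80 in CD4 T cells without Foxp3, and its CD8 UMIs came from 2 KP cells. Il1b had -2.50 and 1.99 in these classes, and Tyrobp, an adaptor of NK and myeloid cells, -1.63 and 1.08. The neutrophil genes S100a8 (-1.59 in CD8 T cells and 1.74 in B cells) and S100a9 (-2.26 and 3.19) also turned direction. Of the 83 S100a9 UMIs in KP CD8 T cells, all lay in 6 cells.

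In the post-depletion libraries, which enter no comparison here, 12 of 2566 kept KPF1F2 cells (0.468%) and 1 kept KP cell passed the T cell conditions without the Cd8 condition, while none passed the CD8 rule.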

How the results depend on the processing

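With 1 library per group no replicate could be left out. No paired analysis was possible because each group has 1 library and no replicate numbers. The planned removal of cells with Cd4, Trdc or Tcrg-C1 used Cd4 alone, since the other genes were not analysed here. Several settings were chosen after seeing the data. Some of them left out Hspa1 cells, cycling cells or the deepest cells, or took ribosomal and mitochondrial genes, Gm42418 and AY036118 out of totals. Others among them were within Ccl5 strata, left out the cell highest in a list, or took means over thinnings. The count of genes at least 2-fold higher (145) was 264 with 1 CPM added, 32 with 50 CPM, 248 with no minimum of UMIs and 71 with a minimum of 50. The count lower (105) was 212, 22, 268 and 47, and 182 with ribosomal and mitochondrial genes, Gm42418 and AY036118 out of totals. DESeq2 size factors gave 156 and 88, so 63.9% of calls were higher. Leaving out cells with an Hspa1a or Hspa1b UMI gave 193 and 133.

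The ratio of the naive list (0.587) was 0.524 with equal weight per cell, 0.539 without Hspa1 cells and 0.702 in cells with fewer than 2 Ccl5 UMIs. It was 0.544 without ribosomal and mitochondrial genes, Gm42418 and AY036118 in the totals. The effector list (1.47) gave 1.67 with equal weight, 1.36 without those genes, and 1.25 and 1.29 in cells with and without 2 Ccl5 UMIs. Residency (0.755) gave 0.608 in cells with fewer than 2 Ccl5 UMIs. The interferon list (1.19) gave 1.05 with Cd8b1 required, 1.35 without the 1 cell per library that had Cd4, and 1.5 without Hspa1 cells. It gave 2.02 in cells with fewer than 2 Ccl5 UMIs and, turned, 0.821 in the others. The cause of these shifts was not tested. The exhaustion list stayed between 1.52 and 1.82. The share with a Ccr7 or Lef1 UMI in KPF1F2 was 25.5% with 3 Cd8 UMIs required and 35.4% at 3000 UMIs. Without thinning it was 63.3% in KP and 31.5% in KPF1F2, where the KP share with Mki67 or Top2a was 17.7%. At 3000 UMIs, with 75 KP and 82 KPF1F2 cells left, means over thinnings were 52.9% and 34.3% for Ccr7 or Lef1, 3.47% and 6.16% for Gzma, and 20.7% and 42.4% for Gzmk. Depth went with state: cells with at least 2 Ccl5 UMIs had a median of 3871 UMIs in KPF1F2, and the rest 6319. In KP these were 5579.5 and 6312.5.

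Signs turned for the medians of progenitor exhausted genes (0.17, no minimum), residency (0.0066 with 3 Cd8 UMIs, 0.056 without cycling cells) and interferon genes (-0.022 with Cd8b1 required, -0.18 with 2 Ccl5 UMIs), and for the G2 and M phase ratio (0.918). Genes near 0 that turned were Actn1 (-0.27, -0.17, -0.055 and -0.033), Gzmm (-0.16, -0.083 and -0.13), Prf1 (0.093), Ctsw (-0.0093), Klrd1 (0.017 and 0.21), Klrc1 (-0.26 and -0.011), Id2 (-0.11 and -0.024), Ccl3 (-0.32 and -0.75), Ctla4 (0.033 and 0.12), Cd160 (0.18, 0.093, 0.23, 0.17 and 0.037), Ikzf2 (0.13, 0.22 and 0.11), Id3 (0.078), Itgae (0.0066, 0.24 and 0.056), Cxcr6 (0.21, 0.16 and 0.059) and Runx3 (-0.019). Of 30 named genes past 2-fold, 18 were short of it in at least 1 setting. With 50 CPM added these were 13: Igfbp4 (-0.77), Dapl1 (-0.90) and Lef1 (-0.85), which are 3 of the 4 naive genes past 2-fold, Tbx21 (0.71), Zeb2 (0.63), Gzmb (0.89), Maf (0.62), Lag3 (0.78), Hsph1 (0.94), Cirbp (-0.88), Pnisr (-0.87), Erdr1 (-0.83) and Rgs10 (-0.86). The others were Gzma (0.97, Cd8b1 required), BC018473 (-0.97, equal weight), Stmn1 (0.95 without the deepest cells, 0.33 without cycling cells), and Hspa1a and Hspa1b where their cells were left out.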
